A study of Mus musculus with 4 samples.

Results

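STAT and IRF proteins are the transcription factors that carry cytokine and pathogen signals to the nucleus. The 9 genes described here, Stat2, Stat3, Irf1, Irf2, Irf4, Irf5, Irf7, Irf8 and Irf9, were taken by name from the 32285 genes of the deposited table, with no threshold on their values. All 9 were found in the table, and each was followed across the 17 deposited cell types and the 4 samples. Type I interferon joins STAT2 and IRF9 into the ISGF3 complex, which binds interferon-stimulated response elements. IRF7 is itself an interferon-induced gene and amplifies type I interferon production, IRF1 is the main early factor induced by interferon gamma, and IRF2 competes with IRF1 for the same DNA sites. IRF5 acts downstream of Toll-like receptors in myeloid cells, STAT3 transmits IL-6 and IL-10 family signals, and IRF8 and IRF4 are lineage factors of monocytes, dendritic cells and lymphocytes.

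CD45+ cells were sorted from melanomas of the mouse line YUMM1.7, which carried the model antigen ovalbumin, and profiled by single-cell 3′ RNA sequencing. The hosts were Rag2-/- mice, which make no T and B cells of their own, and every tumour was taken 72 h after transfer of ovalbumin-specific CD8+ OT-1 T cells. NTT is a tumour of a line naive to targeted therapy and RTT of a line resistant to it, RTT_ROSA26 is the resistant line with a control guide to Rosa26, and RTT_PTGS12KO is the resistant line with Ptgs1 and Ptgs2, the genes for the prostaglandin-producing enzymes COX1 and COX2, knocked out. The knockout was in the cancer cells, which the CD45 sort selects against, so it was not checked in these cells. NTT and RTT each stand for 1 cell line clone, and each group holds 1 sample. No replicate check of any difference was therefore possible, no p-value is given, and all intervals are exact 95% intervals that cover counting error only.

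The samples held 6836 to 10296 cells and 69332486 to 146829369 UMIs (unique molecular identifiers, 1 per captured transcript). The median was 7292.5 UMIs per cell in NTT and 12219 to 13280 in the resistant tumours. Levels are UMIs of a gene per 1000000 UMIs (CPM) summed over the cells of a type in a sample, given for the 42 such sums with at least 50 cells. The samples were tagged, pooled and loaded 3 times, so the loads show technical spread only and any free RNA in the droplets was common to all 4 samples. Of 33270 barcode sequences 98 occurred in more than 1 load and 75 in more than 1 sample, and none occurred more than once within a load. The tumours differed in their cells before any gene was compared. Monocytes (deposited types Monocyte_1, Infl_Mono and Monocyte_3) numbered 6619 in the naive tumour NTT, 522 in RTT, 144 in its guide control RTT_ROSA26 and 4015 in RTT_PTGS12KO. Macrophages (TAM_C1q, TAM_Spp1, TAM_cycling, TAM_H2Ab1 and Ctsk_Macro) numbered 308, 6734, 5993 and 5207 in the same order, and the deposited type Macro, with 130 cells in RTT_ROSA26, was kept apart from them. NK cells numbered 709, 13, 26 and 306, and CD8+ T cells 93, 1, 2 and 45. Cell types are the authors' and were made from the expression of the same cells, in which Irf7 ranked among the genes that marked Infl_Mono and Irf8 among those that marked cDC1, so levels between types are descriptions.

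Promoter sequence was examined because several of these genes differed together between the tumours and are themselves known targets of STATs and IRFs. In the mouse build GRCm38 the 9 genes lie on chromosome 10 (Stat2, 128270559 to 128292849), 11 (Stat3, 100885098 to 100939540, and Irf1, 53770014 to 53778374), 8 (Irf2, 46739732 to 46847458, and Irf8, 120736358 to 120756694), 13 (Irf4, 30749226 to 30766976), 6 (Irf5, 29526625 to 29541871), 7 (Irf7, 141262706 to 141266481) and 14 (Irf9, 55603571 to 55610030). Stat3 and Irf7 are on the minus strand and the others on the plus strand. RefSeq promoter windows of GRCm38.p6, 250 bases before to 50 after the start, were found for all 9. They were searched on both strands for the core of the interferon-stimulated response element (GAAA, any 2 bases, GAAA) and for the STAT site TTCNNNGAA. The response element core was in 3.44% and the STAT site in 8.30% of 32851 windows of that length. Windows of 4 members held a match, given in capitals with the flanking bases on the plus strand.
Stat2, chr10:128270251-128270310, response element core read on the minus strand: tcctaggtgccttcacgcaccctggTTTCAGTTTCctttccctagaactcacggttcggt
Irf1, chr11:53769899-53769957, STAT site: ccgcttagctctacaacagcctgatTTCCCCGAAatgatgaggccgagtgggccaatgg
Irf2, chr8:46739495-46739554, response element core and then a STAT site: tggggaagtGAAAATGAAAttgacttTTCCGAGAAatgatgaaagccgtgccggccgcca
Irf8, chr8:120736162-120736238, a pair of STAT sites: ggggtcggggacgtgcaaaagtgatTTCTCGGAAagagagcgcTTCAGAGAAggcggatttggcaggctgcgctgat
The matched stretches lie upstream of the start. In the windows of Stat3, Irf4, Irf5, Irf7 and Irf9 these letters did not occur, which says nothing of sites outside them. The matches are a description of sequence, and binding was not measured.

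Each gene had its own distribution over cell types, shown in the plot of levels by cell type. Irf8, which cDC1 and monocytes need to develop, was highest, among types with at least 50 cells in a sample, in CCR7+ dendritic cells (DC3), at 1327 CPM in NTT and 1329 CPM in RTT_PTGS12KO. NK cells followed at 805 and 719 CPM, with no overlap of the sample ranges, and the next types, TAM_H2Ab1, Infl_Mono and Monocyte_1, overlapped each other. The few cDC1 cells, under 50 in every sample, held 1718 CPM in NTT (32 cells), 636 CPM in RTT (7 cells), 1206 CPM in RTT_ROSA26 (10 cells) and 1437 CPM in RTT_PTGS12KO (37 cells). Myofibrobl, a non-immune cluster among the sorted cells, lay last at 8.71 to 9.47 CPM.

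Irf4, which acts in T cells and in cDC2, was low in monocytes and macrophages, at 0.719 to 1.88 CPM over the 4 samples. The CD8+ T cells of NTT held 64.7 CPM (93 cells), and the 45 cells of RTT_PTGS12KO held 99.4 CPM. In cDC2, Irf4 stood at 14.5 CPM in NTT (10.0 to 20.3) and at 30.1, 32.8 and 32.9 CPM in RTT, RTT_ROSA26 and RTT_PTGS12KO, so that the naive tumour was the lowest of the 4. Irf4 stood higher in NTT than in RTT in 0 of the 6 cell types with at least 50 cells in both, and 1 of the 6 intervals lay wholly below 0.

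Stat3 was highest in DC3, at 526 CPM in NTT and 475 CPM in RTT_PTGS12KO, and NK cells held 202 and 185 CPM. Irf5 was also high in DC3, at 170 and 135 CPM, and low in lymphocytes, at 25.2 and 20.5 CPM in NK cells. In cDC2 it ranged from 84.2 to 190 CPM over the samples. Irf2 had its highest levels in monocytes: Infl_Mono held 292, 221, 217 and 281 CPM in NTT, RTT, RTT_ROSA26 and RTT_PTGS12KO. By the mean over samples Infl_Mono also came first for Stat2, Irf7 and Irf9, with Irf9 at 53.9 to 74.2 CPM there. DC3, averaged over NTT and RTT_PTGS12KO only, came first for Irf1 and Irf5. Its highest single values, 369 CPM of Irf1 and 170 CPM of Irf5, were exceeded elsewhere. Irf1 reached 461 CPM in Infl_Mono, and Irf5 reached 176 CPM in Infl_Mono and 190 CPM in cDC2. Neighbours in these orders mostly did not differ beyond their spread: the range of the leading type stood clear of the next for Irf8 and Stat3 in DC3 and Irf4 in CD8+ T cells, and overlapped it for the other 6 members. Reads of Irf8 and Irf9 overlap those of a neighbour on the same strand (Gm20388 and Rnf31), so how they were divided is uncertain.

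**Figure D1:**
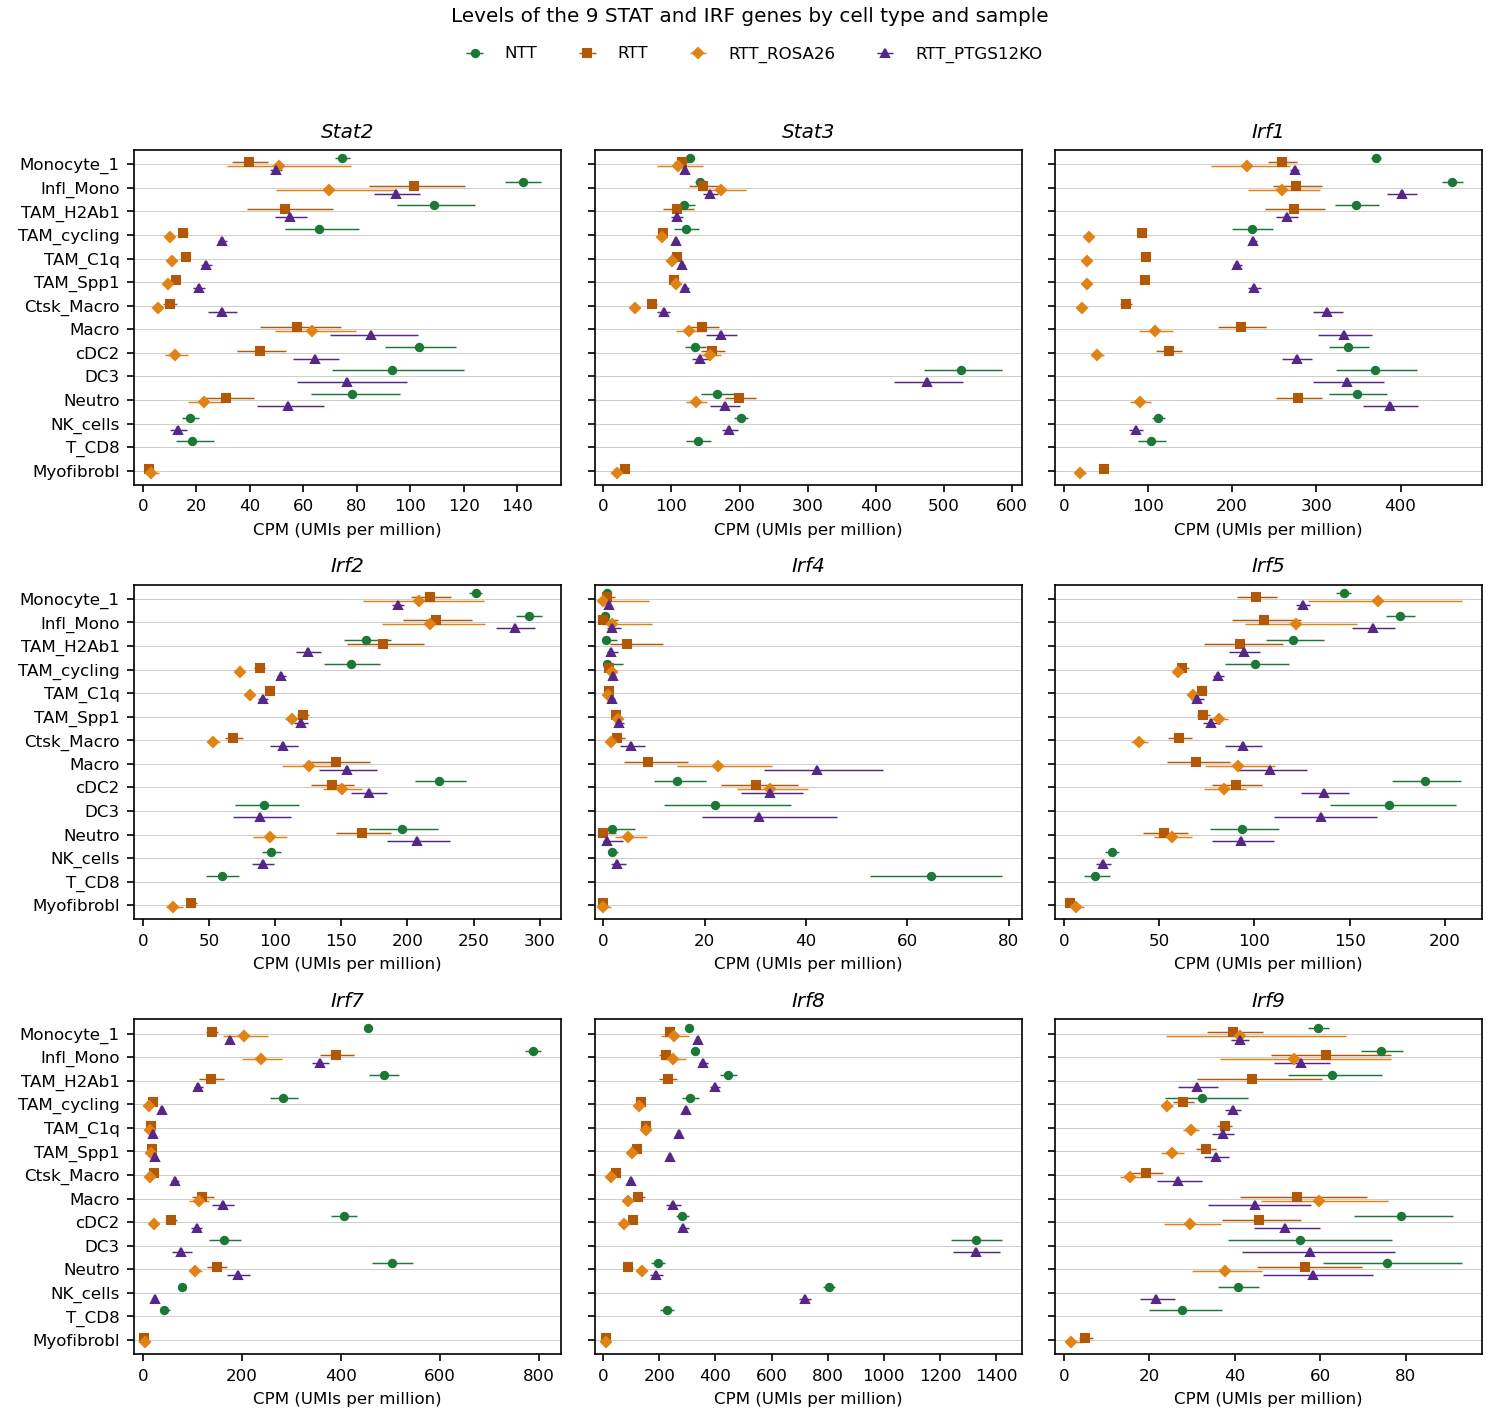
CPM of each member (x axis, 1 panel per gene) by deposited cell type (y axis) and sample (colour), for sums of at least 50 cells. Bars are exact 95% counting intervals. Among the types shown Irf8 peaks in DC3 at 1327 and 1329 CPM and Irf7 in Infl_Mono of NTT at 788 CPM, while Irf1 is at 21.7 to 29.7 CPM in TAM_C1q, TAM_Spp1, TAM_cycling and Ctsk_Macro of RTT_ROSA26.

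The first comparison asked how immune cells of the naive tumour differ from those of the resistant one. Over monocytes and macrophages pooled, the interferon-linked members were higher in NTT, and Irf7 showed the widest gap. Irf7 stood at 519 CPM in NTT (513 to 525), 27.9 CPM in RTT (26.9 to 28.9), 17.0 CPM in RTT_ROSA26 (16.2 to 17.9) and 88.2 CPM in RTT_PTGS12KO (86.6 to 89.8). NTT was far above the other 3 samples, and within it the 3 loads spanned 487 to 541 CPM. The log2 ratio of NTT to RTT was 4.22 (4.16 to 4.28), an 18.6-fold difference that ranked 26 from the highest of 6833 genes. A gene entered such a ranking if the mean of the compared pair reached 10 CPM, and ratios carry no pseudocount.

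Stat2, the DNA-complex partner of IRF9, stood at 89.4 CPM in NTT, 17.0 CPM in RTT, 10.5 CPM in RTT_ROSA26 and 36.7 CPM in RTT_PTGS12KO. The order of the samples was the same as for Irf7, an order that every member but Irf4 shared. For Stat2 the NTT to RTT log2 ratio was 2.39 (2.32 to 2.47). Irf9 itself differed less, at 61.8, 34.2, 25.7 and 39.0 CPM in that order and a log2 ratio of 0.85 (0.78 to 0.92). Irf1 stood at 384 CPM in NTT, 105 CPM in RTT, 30.3 CPM in RTT_ROSA26 and 247 CPM in RTT_PTGS12KO. Here both NTT and RTT_PTGS12KO were high, and the log2 ratio of NTT to RTT was 1.87 (1.84 to 1.91). Irf2, the antagonist of IRF1, stood at 254, 105, 81.2 and 136 CPM, a log2 ratio of 1.27 (1.23 to 1.30).

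Among the myeloid factors, Irf8 stood at 314 CPM in NTT, 141 CPM in RTT, 126 CPM in RTT_ROSA26 and 296 CPM in RTT_PTGS12KO, with a NTT to RTT log2 ratio of 1.15 (1.12 to 1.19). Irf5 stood at 150, 71.7, 64.9 and 95.1 CPM, a log2 ratio of 1.07 (1.02 to 1.11). Stat3 varied least by ratio, from 91.5 CPM in RTT_ROSA26 to 130 CPM in NTT, with a log2 ratio of 0.35 (0.31 to 0.39). Irf4 was the member with a lower value in NTT, a log2 ratio of -1.08 (-1.62 to -0.57) on 40 and 156 UMIs. It was under the 10 CPM minimum and is not counted below.

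Of the 8 members tested, 6 (Stat2, Irf1, Irf2, Irf5, Irf7 and Irf8) were at least 2-fold higher in NTT and 0 at least 2-fold lower, where 7.67% of all genes tested were that much higher and 7.23% lower. With 10 CPM added to every level Irf5 fell under 2-fold, at 0.97. The median log2 ratio of all 9, Irf4 included, was 1.15, beside -0.10 over all genes tested. These pooled values moved with the mix of cells: 6 of 6 monocyte markers were detected in every sample, with a summed level of 7139, 374, 355 and 2126 CPM in NTT, RTT, RTT_ROSA26 and RTT_PTGS12KO. When the 4 cell types with enough cells in both samples were given equal weight, 1 member passed 2-fold, Irf7 at a log2 ratio of 1.55, and the median was 0.59.

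Within monocytes alone, Irf7 stood at 531 CPM in NTT (524 to 537), 205 CPM in RTT (192 to 218), 225 CPM in RTT_ROSA26 (196 to 256) and 198 CPM in RTT_PTGS12KO (193 to 202). The naive tumour stood apart and the intervals of RTT_ROSA26 overlapped those of RTT and RTT_PTGS12KO. The log2 ratio of NTT to RTT was 1.38 (1.28 to 1.47), ranking 51 from the highest of 6499 genes. Irf7 was the 1 member of 8 at least 2-fold higher in monocytes, beside 1.85% of genes tested, and the median of all 9 was 0.47. Stat2 (0.69), Irf5 (0.59) and Irf1 (0.57) followed, and the interval of Stat3 (0.09, -0.03 to 0.21) included no difference. The RTT monocytes carried more macrophage transcripts, with 7 macrophage markers summing to 15043 CPM there against 5234 CPM in NTT. The part of that difference in these ratios was not tested.

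Within macrophages, Irf7 stood at 371 CPM in NTT, 19.0 CPM in RTT, 14.96 CPM in RTT_ROSA26 and 37.5 CPM in RTT_PTGS12KO. The NTT to RTT log2 ratio was 4.29 (4.19 to 4.39), with Stat2 at 2.43 (2.25 to 2.60), Irf1 at 1.56 (1.47 to 1.64) and Irf8 at 1.42 (1.34 to 1.50). These 4 of the 8 members were at least 2-fold higher, beside 5.35% of genes tested. Unlike types made up the class: 192 of the 308 NTT macrophages were TAM_H2Ab1, against 63 of 6734 in RTT, most of which were TAM_C1q and TAM_Spp1. Within TAM_H2Ab1, Irf7 (1.82, 1.55 to 2.11) and Stat2 (1.03, 0.57 to 1.52) passed 2-fold, and neither macrophage type with at least 50 cells in both tumours reached the pooled Irf7 ratio. The 6 monocyte markers, each of them detected, summed to 1764 CPM in the NTT macrophages against 263 CPM in RTT. The part of those monocyte transcripts in the ratios was not tested.

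Across the 6 cell types with at least 50 cells in both tumours, Irf7 was at least 2-fold higher in NTT in 6 of 6. The log2 ratio was smallest in Infl_Mono, at 1.01 (0.88 to 1.14), and widest in TAM_cycling, at 3.84 (3.63 to 4.05). In cDC2 Irf7 stood at 406 CPM in NTT and 57.8 CPM in RTT, and in neutrophils at 503 and 149 CPM. The 6 monocyte markers moved with these values, summing to 2544 CPM in NTT and 202 CPM in RTT in TAM_cycling, 4924 and 764 CPM in cDC2 and 5142 and 2156 CPM in neutrophils. In Infl_Mono the 7 macrophage markers summed to 4703 CPM in NTT and 25028 CPM in RTT. The part of these transcripts in the ratios was not tested. Stat2, Irf1, Irf5 and Irf8 were also higher in 6 of 6 types, with 4, 2, 1 and 3 of them past 2-fold. Irf2 was higher in 5 of 6 and Stat3 in 3 of 6, with 0 types past 2-fold for either.

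**Figure D2:**
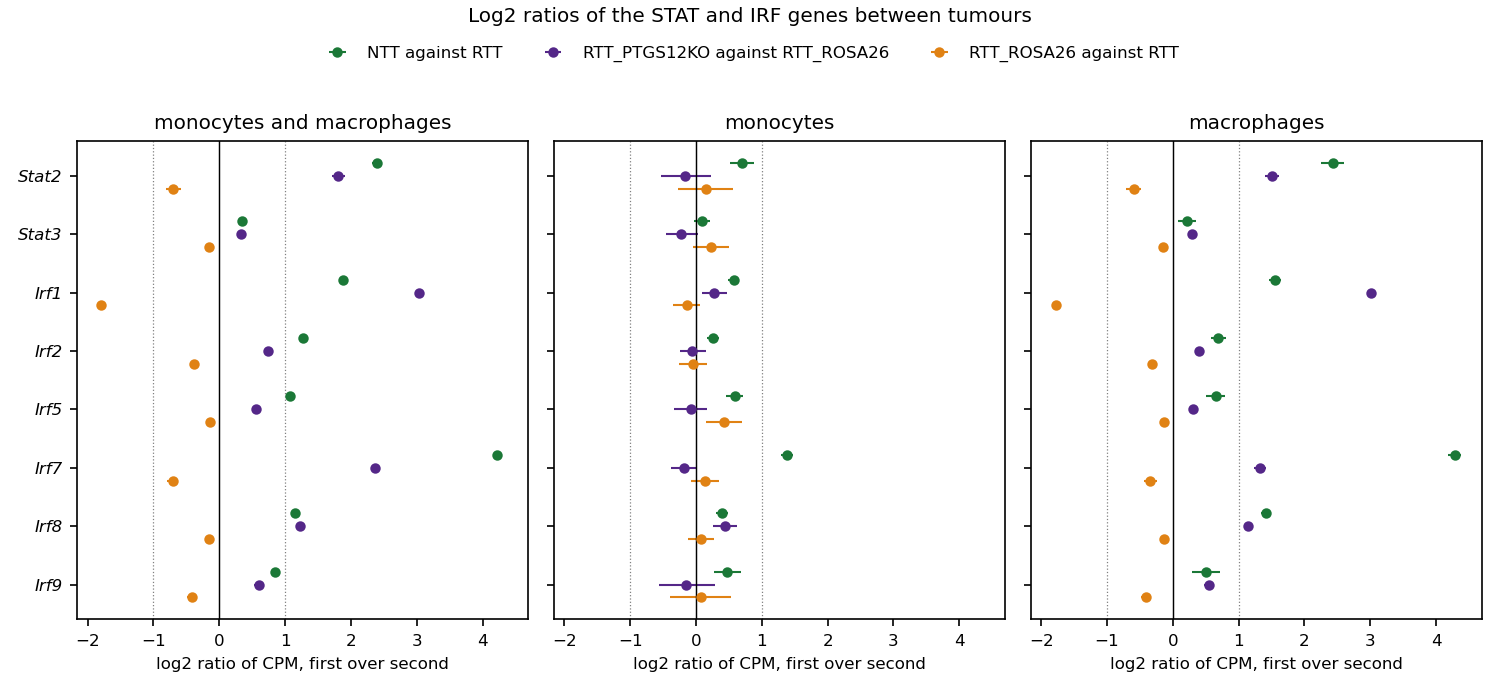
Log2 ratio of CPM (x axis) for each member but Irf4, in monocytes and macrophages pooled, monocytes, and macrophages (panels), for NTT against RTT, RTT_PTGS12KO against RTT_ROSA26 and RTT_ROSA26 against RTT (colours); bars are exact 95% counting intervals and dotted lines mark 2-fold. Irf7 reaches 4.29 for NTT in macrophages and Irf1 reaches 3.01 for the knockout, whereas in monocytes 1 ratio, that of Irf7 for NTT, passes 2-fold.

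The second comparison asked what loss of prostaglandin synthesis in the cancer cells does to the immune cells, with RTT_PTGS12KO set against its guide control RTT_ROSA26. Irf1 had the widest gap among the members, and it lay in macrophages. There Irf1 stood at 285 CPM in NTT (269 to 302), 96.8 CPM in RTT (94.9 to 98.8), 28.2 CPM in RTT_ROSA26 (27.2 to 29.3) and 227 CPM in RTT_PTGS12KO (224 to 230). The control was the lowest sample, and the knockout stood closer to NTT than to either resistant tumour that keeps the genes. The log2 ratio was 3.01 (2.95 to 3.07) in macrophages, rank 22 from the highest of 7086 genes, and 3.03 (2.97 to 3.08), an 8.15-fold difference, with monocytes pooled in. Irf1 belongs to a gene list that the study drew from these same samples, so its height in this comparison is not independent of that choice.

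The choice of control mattered for Irf1. RTT_ROSA26 and RTT both keep Ptgs1 and Ptgs2, yet Irf1 was lower in RTT_ROSA26 by a log2 ratio of -1.79 (-1.85 to -1.73) over monocytes and macrophages, rank 12 from the lowest of 7051 genes. It was the 1 member of 8 at least 2-fold lower between these controls, beside 0.922% of genes tested (0.709% were as much higher), and again in macrophages alone, where 0.723% of genes were as much lower. Their median log2 ratio over all 9 members was -0.38, beside 0.07 over all genes tested. In 10 cell types Irf1 was lower in RTT_ROSA26 in 10 and past 2-fold in 7, from -0.09 in Infl_Mono to -1.83 in TAM_C1q. With each cell type weighted equally, 0 members passed 2-fold between these controls and Irf1 stood at -0.62.

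Stat2 was higher in the knockout in macrophages at 28.2 CPM against 10.0 CPM in RTT_ROSA26, a log2 ratio of 1.50 (1.39 to 1.61). Irf7 followed at 1.32 (1.24 to 1.41) and Irf8, at 276 CPM against 125 CPM, at 1.14 (1.11 to 1.18). With Irf1 these were the 4 of 8 members at least 2-fold higher in macrophages, beside 2.37% of genes tested. Against RTT, a control set in place of RTT_ROSA26 after the data had been seen, the macrophage ratios of the knockout were 1.23 for Irf1 (1.19 to 1.26), 1.02 for Irf8 (0.99 to 1.05), 0.98 for Irf7 (0.90 to 1.06) and 0.90 for Stat2 (0.81 to 1.00), so that Irf7 and Stat2 were under 2-fold. With 10 CPM added to every level, Stat2 (0.94) and Irf7 (0.93) no longer passed 2-fold there. Irf9 (0.54), Irf2 (0.40), Irf5 (0.30) and Stat3 (0.29) stood above 0 by smaller amounts. Monocytes pooled with macrophages gave the same 4 names, beside 3.63% of genes higher and 1.96% lower, and a median over all 9 of 0.75, beside -0.14 over all genes tested. With each cell type weighted equally, 1 member, Irf1 at 1.50, passed 2-fold and the median was 0.44. The 6 monocyte markers summed to 612 CPM in macrophages of the knockout and 300 CPM in those of the control, and their part in these ratios was not tested.

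In monocytes taken as a class the ratios were smaller. Irf1 stood at 392, 264, 239 and 290 CPM in NTT, RTT, RTT_ROSA26 and RTT_PTGS12KO, and Irf8 at 310, 236, 249 and 339 CPM. The knockout to control log2 ratio was 0.28 (0.09 to 0.47) for Irf1 and 0.44 (0.26 to 0.63) for Irf8, and the interval of every other member included no difference. The class was made up of unlike types, with Infl_Mono 86 of the 144 monocytes in the control and 635 of 4015 in the knockout. Within Infl_Mono, Irf1 (0.63), Irf7 (0.59), Irf8 (0.51), Irf5 (0.41) and Irf2 (0.37) had intervals above 0, and the median of all 9 was 0.41. In the same cells the 7 macrophage markers summed to 3442 CPM in the knockout and 10477 CPM in the control and the 6 monocyte markers to 12287 and 6988 CPM, and their part was not tested. Within Monocyte_1, Irf8 (0.42) and Irf1 (0.33) had intervals above 0 and Irf5 (-0.40, -0.74 to -0.03) one below it. In the class 0 of the 8 members were at least 2-fold higher, beside 1.83% of genes tested, and the median of all 9 was -0.08. RTT_ROSA26 contributed 144 monocytes, so differences smaller than these interval widths were not detectable at this depth.

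By cell type the Irf1 difference was wide outside monocytes. Ctsk_Macro held 313 CPM in the knockout and 21.7 CPM in the control, a log2 ratio of 3.85 (3.63 to 4.08), the widest of the 9 types compared. TAM_C1q (2.90), TAM_cycling (2.92), TAM_Spp1 (3.03), cDC2 (2.80), neutrophils (2.09) and Macro (1.62) also passed 2-fold. Infl_Mono (0.63) and Monocyte_1 (0.33, 0.03 to 0.65) stayed under it. The 6 monocyte markers summed to 139 CPM in the knockout and 80.6 CPM in the control in Ctsk_Macro, 326 and 176 CPM in TAM_C1q, 713 and 189 CPM in TAM_cycling, 858 and 1088 CPM in TAM_Spp1 and 3642 and 1392 CPM in neutrophils, and their part was not tested. Irf8 was higher in 9 of 9 types and past 2-fold in 5, with the widest ratio in cDC2 (1.95, 1.73 to 2.17).

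Irf7 and Irf1, both interferon-induced, thus differed between tumours in unlike ways, shown in the plot of Irf7 against Irf1. The ratio of their UMIs was computed after the values had been seen, and it is read between samples only, since counts of different genes are not on a common scale. In macrophages there were 1.30 Irf7 UMIs per Irf1 UMI in the naive tumour, 0.165 in the knockout, 0.196 in RTT and 0.531 in RTT_ROSA26. The naive tumour was highest. In the same order the values were 1.35, 0.681, 0.775 and 0.938 in monocytes and 1.44, 0.497, 0.537 and 1.17 in neutrophils. The order of the knockout and RTT did not hold throughout: over monocytes and macrophages pooled the knockout stood at 0.357 and RTT at 0.266, and in Monocyte_1 at 0.639 and 0.536.

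**Figure D3:**
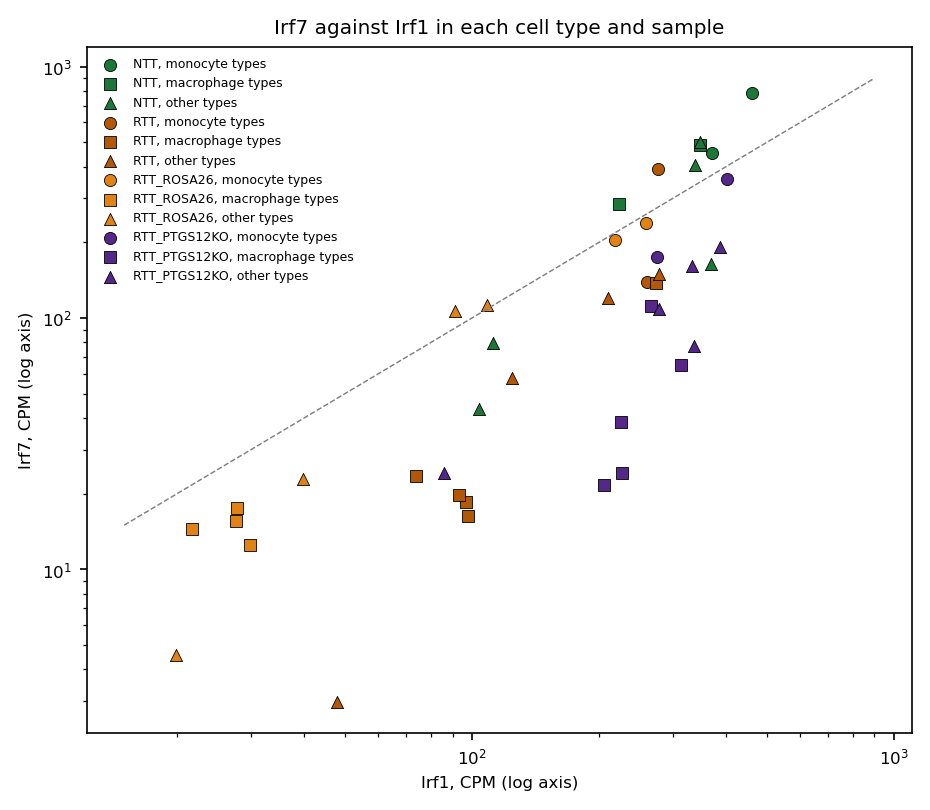
Irf7 CPM (y axis, log scale) against Irf1 CPM (x axis, log scale) for sums of at least 50 cells, coloured by sample. Marker shapes separate monocyte, macrophage and other types, and the dashed line marks equal CPM. No intervals are drawn. Sums of RTT_PTGS12KO come near the Irf1 levels of NTT but sit below them in Irf7, as in TAM_cycling with 38.6 against 283 CPM of Irf7 at 225 and 223 CPM of Irf1.

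RTT_PTGS12KO was then set against NTT directly, a comparison added after the data had been seen and of lines that differ in more than the knockout. Irf7 was lower in the knockout by a log2 ratio of -2.56 (-2.59 to -2.53) over monocytes and macrophages, rank 7 from the lowest of 6714 genes. Stat2 (-1.28, -1.34 to -1.23) was the other of the 8 members at least 2-fold lower, beside 3.9% of genes tested, and the median of all 9 was -0.66 beside 0.04 over all genes. In monocytes Irf7 alone of the 8 was past 2-fold, at -1.42 (-1.46 to -1.39), beside 0.731% of genes. Irf7 passed 2-fold in 8 of 8 cell types, from -1.08 in DC3 to -2.88 in TAM_cycling, with NK cells at -1.72. Monocyte markers were lower in the knockout too in TAM_cycling, at 713 CPM against 2544 CPM, in NK cells, at 1800 CPM against 3209 CPM, and in DC3, at 550.1 CPM against 1552 CPM. They were higher in Infl_Mono, at 12287 CPM against 10752 CPM, and their part was not tested.

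Irf1 and Irf8 were past 2-fold in 0 of those 8 types. Their log2 ratios ran from -0.43 in Monocyte_1 to 0.15 in neutrophils for Irf1 and from -0.16 to 0.14 for Irf8. For Irf8 the interval in DC3 was -0.13 to 0.14 and in cDC2 -0.12 to 0.16, which bounds any difference in those libraries to counting error of that size.

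How much of each pooled difference lay in the mix of monocyte and macrophage types, and how much in levels within a type, was split arithmetically. This split rests on types made from the same expression data and is a description. It applied no minimum of cells, so some levels in it rest on few cells. NTT held 12 TAM_C1q, 20 TAM_Spp1 and 5 Ctsk_Macro cells, and RTT_ROSA26 held 11 TAM_H2Ab1 cells. For NTT against RTT, the level within types held 50.8% of the Irf7 difference, 59.3% of that of Irf8, 54.6% of Irf5, 44.8% of Irf1, 38.0% of Stat2, 25.9% of Irf2 and 25.6% of Irf9. For RTT_PTGS12KO against RTT_ROSA26 the members parted: level within types held 80.6% of the Irf1 difference and 76.6% of that of Irf8, but 11.2% of that of Irf7 and 16.9% of that of Irf5. Stat2 lay between, at 51.1%. The split runs over all the monocyte and macrophage types together, and within macrophages alone the Irf7 log2 ratio of the knockout was 1.32 (1.24 to 1.41).

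**Figure D4:**
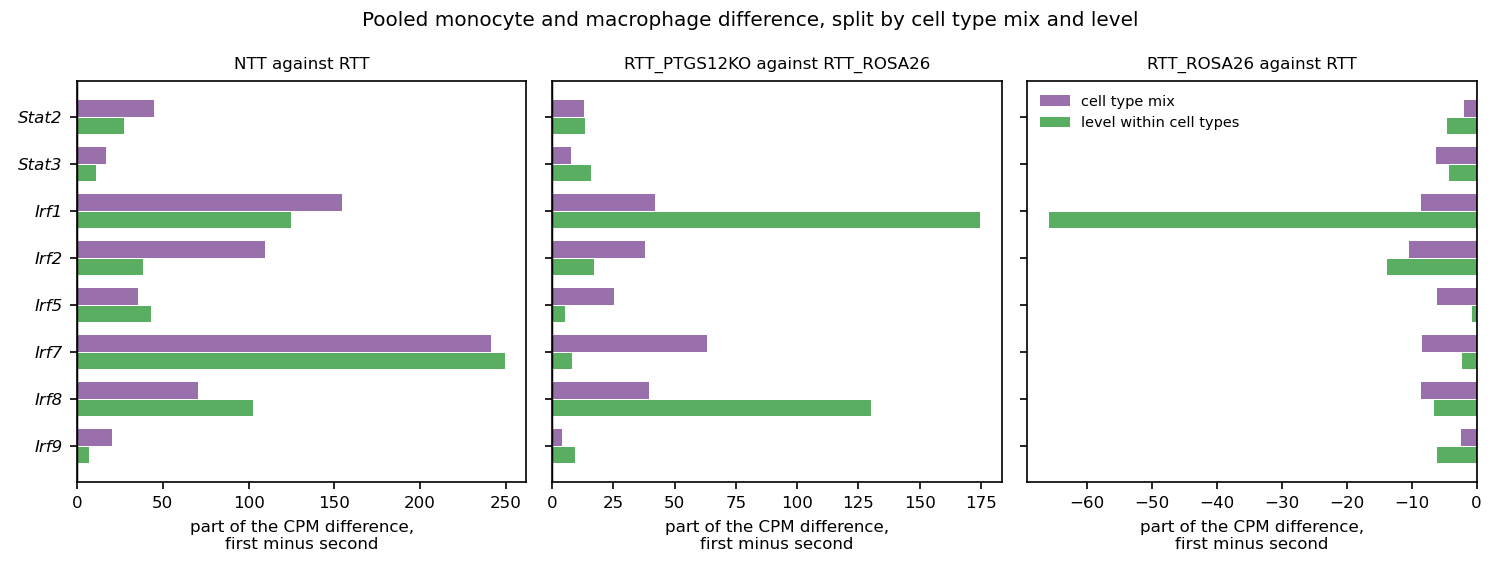
Difference in CPM (x axis) over monocytes and macrophages for each member but Irf4, divided into the part from the mix of cell types and the part from levels within types (colours), for 3 comparisons (panels). For the knockout against its control the mix holds 88.8% of the Irf7 difference and 19.4% of the Irf1 difference.

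The share of cells with a UMI gave the same picture at equal depth. Each cell was thinned to 3000 UMIs, which kept 6708 of 6734 macrophages in RTT and 6457 of 6619 monocytes in NTT. Among macrophages, an Irf7 UMI was found in 59.8% of NTT cells (54.1 to 65.3), 4.79% of RTT cells (4.29 to 5.32), 3.95% of RTT_ROSA26 cells (3.47 to 4.47) and 9.20% of RTT_PTGS12KO cells (8.43 to 10.0). Unthinned, the shares were 89.9%, 15.2%, 14.0% and 29.5%. The Myofibrobl cells of RTT, which should hold little Irf7 and Irf8, gave the background. Their Irf7 share was 2.02% thinned (0.658 to 4.64) and 6.43% unthinned (3.72 to 10.2), at a median depth of 33469 UMIs against 12915 UMIs in RTT macrophages. The RTT macrophages were above it unthinned and overlapped its upper bound thinned, and their level of 19.0 CPM stood against 2.96 CPM. For RTT_ROSA26 the 59 Myofibrobl cells gave 10.2% unthinned (3.82 to 20.8), an interval that holds the macrophage share. The unthinned shares in NTT and RTT_PTGS12KO macrophages were above both of these backgrounds.

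Irf1 was found in 53.9% of NTT macrophages, 20.5% of RTT, 7.36% of RTT_ROSA26 and 40.3% of RTT_PTGS12KO macrophages after thinning, and in 87.3%, 48.2%, 27.7% and 75.2% before it. Unthinned, Myofibrobl cells held Irf1 in 44.6% of cells in RTT and 50.8% in RTT_ROSA26, far above their Irf8 shares of 12.4% and 13.6%, so they were not read as a background for Irf1. Irf8, at 1.61% in Myofibrobl of RTT, was in 62.1%, 31.1%, 28.3% and 47.9% of macrophages and thus above that background in every sample. In neutrophils, a background planned for Irf8, the thinned shares were 36.8%, 14.7%, 23.1% (16.4 to 30.9) and 24.4%. The RTT_ROSA26 interval holds the macrophage share of that sample, so Irf8 was not above this background there. Stat2 was in 20.9%, 3.95%, 2.67% and 7.89% of macrophages thinned and in 58.1%, 16.9%, 13.3% and 31.3% unthinned. Stat2 in Myofibrobl of RTT was at 1.61% thinned (0.441 to 4.08), which holds the RTT macrophage share, and at 6.43% unthinned (3.72 to 10.2), which lies below it. In RTT_ROSA26 it was at 3.45% thinned (0.420 to 11.9) and 11.9% unthinned (4.91 to 22.9), intervals that hold the macrophage shares of that sample. In monocytes 73.5%, 37.3%, 32.6% and 39.97% of cells held Irf7, so that RTT_PTGS12KO lay with the resistant tumours and below NTT.

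**Figure D5:**
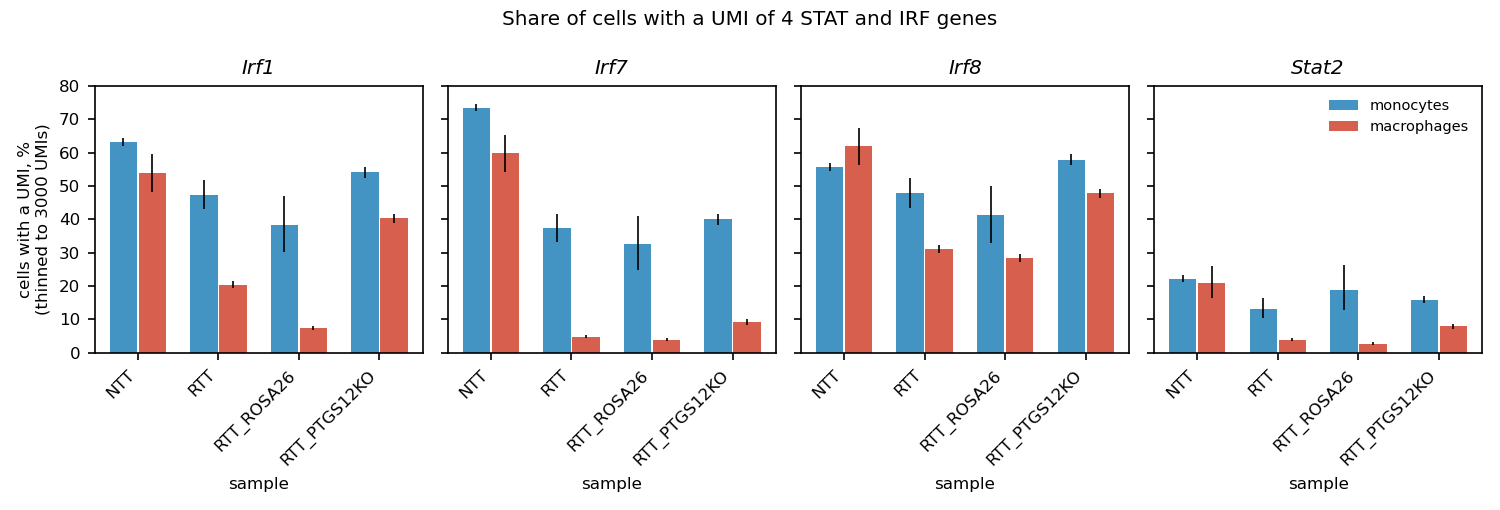
Percent of cells with at least 1 UMI after thinning to 3000 UMIs (y axis) for Irf1, Irf7, Irf8 and Stat2 in monocytes and macrophages by sample; bars are exact 95% intervals. Irf7 is in 59.8% of NTT macrophages and 9.20% of RTT_PTGS12KO macrophages, whereas Irf1 is in 53.9% and 40.3%.

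Genes around these factors were followed in lists, in monocytes and macrophages pooled, where 7.67% of all genes tested were at least 2-fold higher in NTT and 3.63% in the knockout, with medians of -0.10 and -0.14. Of the receptors and JAK kinases that act before STATs, 2 of 11 tested were at least 2-fold higher in NTT than in RTT, Jak2 (1.72) and Il10ra (1.08), with the interferon gamma receptor subunit Ifngr1 at -0.81 and Il10rb at -0.45. In the knockout 0 of 10 passed 2-fold, with Jak2 at 0.83 and Tyk2 at 0.63 as the highest and Il10rb (-0.73) and Ifngr1 (-0.50) as the lowest. Of the sensing genes that act before IRFs, 5 of 17 were at least 2-fold higher in NTT, led by the RNA sensors Ifih1 (2.14) and Ddx58 (1.94), and their adaptor Mavs stood at -0.68 and the kinase gene Irak4 at -0.16. In the knockout 0 of 16 passed 2-fold, with Tmem173, the gene of STING, at 0.94, Ddx58 at 0.92, Irak1 at -0.45 and Tlr7 at -0.59.

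Of the DNA-binding partners of IRFs, 3 of 9 were at least 2-fold higher in either comparison. Batf2 stood at 75.7 CPM in NTT against 9.77 CPM in RTT, a log2 ratio of 2.95, and at 45.4 CPM in the knockout against 3.74 CPM in its control, a log2 ratio of 3.60. Batf3, known for its part in cDC1, stood at 2.93 and 1.75. The lowest of the list were Id2, at -0.19 and -0.22, and Zeb2, at 0.20 and -0.15.

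Known targets of these factors came last. Of 19 ISGF3 targets tested, 19 were at least 2-fold higher in NTT, with a median log2 ratio of 3.12 and Ifi44 (5.19) and Oasl1 (4.26) at the top. In the knockout 14 of 16 were at least 2-fold higher, with a median of 2.13, Oas3 at 3.02 and Isg15 at 2.77. The lowest were Eif2ak2, at 1.12 in NTT and 0.72 in the knockout, and Bst2, at 1.15 and 0.21. Targets of interferon gamma and Irf1 were at least 2-fold higher in NTT in 20 of 20, with a median of 2.64 and values from 1.53 (Gbp7) and 1.57 (Psmb10) to 3.48 (Gbp4) and 3.55 (Cd274, the gene of PD-L1). In the knockout they were at least 2-fold higher in 19 of 19, with a median of 3.22 and Iigp1 (4.80) and Cxcl9 (4.40) at the top, and Psmb10 (1.34) and Psmb8 (1.52) at the bottom. Several of these genes answer to both kinds of interferon. Between RTT_ROSA26 and RTT the ISGF3 list had a median of -0.55 with 0 of 11 past 2-fold, and the interferon gamma list a median of -1.20 with 10 of 16 at least 2-fold lower in RTT_ROSA26, beside a median of 0.07 and 0.922% as much lower over all genes tested. Stat3 targets had medians of 0.57, 0.46 and -0.30 for the 3 comparisons, with members on either side of 0. In NTT 2 of 12 of them were at least 2-fold higher, the repressor gene Nfil3 (1.26) and the kinase gene Pim1 (1.04), 1 was lower, Il4ra (-1.09), and Cebpd stood at -0.54. In the knockout 0 passed, with Socs3 at 1.00, just under the limit before rounding, Nfil3 at 0.98, Il4ra at -0.36 and Myc at -0.74.

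The genes most like each member were ranked by Pearson's r of log2(CPM + 1) over the 42 sums, among 7096 genes. The sums share libraries and loads and differ in depth, so r is a description without a p-value. Irf7 was most like Xaf1 (0.975), Ifi213 (0.968) and Oas3 (0.966), and Stat2 most like Dtx3l (0.965), Trafd1 (0.959) and Oasl2 (0.9499). Irf1 lay closest to the interferon gamma targets Irgm1 (0.938) and Gbp5 (0.938). Irf9 was nearest to Trim30a (0.928), Bcl3 (0.927) and Birc3 (0.9205), Irf5 to Nuak2 (0.935), Prkcd (0.933) and Tifa (0.926), and Irf2 to 1600014C10Rik (0.928), AB124611 (0.9199) and N4bp1 (0.906). The values were lower for Stat3, with Mob3a (0.894), N4bp2l1 (0.892) and Selplg (0.886), for Irf8, with Sp110 (0.864), Adap1 (0.862) and Slamf7 (0.861), and for Irf4, with Elovl5 (0.777), Kmo (0.767) and Dpp4 (0.744).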

How the data were processed

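The authors deposited 1 table of UMI counts per gene and cell, with a sample and cell type for each cell. Per the paper's methods and the labels, reads were assigned with Cell Ranger against mm10, and cells were filtered, integrated and named in Seurat 4.3.0. Counts with the authors' cell types were summed here per sample and type and divided by total UMIs (Python 3.11.15, numpy 2.4.6, scipy 1.17.1, pandas 2.3.3). Intervals are exact Poisson intervals for CPM and Clopper-Pearson intervals for shares and ratios. A sum of 0 was set at 3 UMIs. Genes counted as apart had at least 10 CPM and a 2-fold difference. The arithmetic was tested on simulated data. The named genes are the members, the 2 highest and 2 lowest of each list in the 2 main comparisons and the 3 genes most like each member. Members and lists were chosen with earlier results of these data known, and the Myofibrobl background after seeing the values. A list of further STAT and IRF genes and 1 gene most like Irf1 are not reported here. The source label gives 1 tumour per sample and the study's legends give pooled tumours. No doublet caller was run. As an alternative scaling, TMM was run in edgeR 4.0.16 (R 4.3.3). Per the study's methods mice were 6 to 12 weeks old, and the sex of these hosts is not given in the labels.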

Additional observations from a re-analysis of the deposited data

Results flagged for a closer look

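Both entries below are members whose log2 ratio had opposite signs in monocytes and macrophages, with intervals clear of 0 in both classes. The difference between the classes was not tested, and each class rests on 1 sample per group.

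Irf5 was higher in RTT_ROSA26 than in RTT in monocytes, at a log2 ratio of 0.43 (0.15 to 0.71), and lower in macrophages, at -0.13 (-0.18 to -0.08). Infl_Mono made up 86 of 144 monocytes in RTT_ROSA26 and 138 of 522 in RTT. Over all monocytes of the 2 samples, in that order, 7 macrophage markers summed to 9129 and 15043 CPM and 6 monocyte markers to 5776 and 2599 CPM, and their part in the Irf5 values was not tested. Irf8 was higher in RTT_PTGS12KO than in NTT in monocytes, at 0.13 (0.10 to 0.16), and lower in macrophages, at -0.41 (-0.48 to -0.33). Neither macrophage type with at least 50 cells in both samples matched the class value for Irf8: TAM_H2Ab1 stood at -0.16 (-0.27 to -0.05) and TAM_cycling at -0.08 (-0.21 to 0.06), and TAM_H2Ab1 made up 192 of 308 macrophages in NTT and 364 of 5207 in RTT_PTGS12KO. The NTT macrophages had 6 monocyte markers summing to 1764 CPM, against 612 CPM in RTT_PTGS12KO, and the part of this in the Irf8 values was not tested.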

How the results depend on the processing

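No paired analysis was possible because every group is a single sample, and for that reason no library could be left out. No alternative turned the direction of any median or count, and all changes below are in values without a test. For NTT against RTT the median log2 ratio of 1.15 was 1.10 with 10 CPM added, 1.22 with TMM scaling, 1.12 with each cell weighted equally and 0.59 with each cell type weighted equally. For RTT_PTGS12KO against RTT_ROSA26 the median of 0.75 was 0.68 with 10 CPM added, 0.87 with TMM and 0.44 with cell types weighted equally. For RTT_ROSA26 against RTT the median of -0.38 was -0.31 with 10 CPM added, -0.48 with TMM, -0.33 with cells and -0.12 with cell types weighted equally. For RTT_PTGS12KO against NTT the median of -0.66 was -0.61 with 10 CPM added, -0.71 with TMM, -0.61 with cells and -0.27 with cell types weighted equally. Weighting cell types equally, which keeps types of at least 50 cells in both samples, cut the members past 2-fold from 6 to 1 (Irf7) for NTT against RTT, from 4 to 1 (Irf1) for the knockout against its control, from 1 to 0 between the controls and from 2 to 1 (Irf7) for the knockout against NTT. Under it Irf5 stood at 0.17 between the controls, where the pooled value was -0.14. With no CPM minimum 7 and 3 members passed for NTT against RTT and for the knockout against NTT, since Irf4 then counted. Over the 108 single log2 ratios of the 4 comparisons and their 6 alternatives each, 532 values stayed within their counting interval and 116 moved beyond it. With the 50 most abundant genes left out of the total, 35 levels moved beyond their interval and 1 stayed. With cells unthinned or thinned to 5000 UMIs, 206 shares moved and 10 stayed. The sign of 7 ratios, none of them 2-fold and all with intervals that include 0, differed under 1 to 3 of 6 alternatives: 4 were of Irf4, and the others were in monocytes, Stat2 and Irf5 for the knockout against its control and Stat2 between the controls. With 10 CPM added, Irf5 fell under 2-fold for NTT against RTT (5 members in place of 6), and Stat2 and Irf7 did in macrophages of the knockout. Among the monocyte and macrophage classes, the monocytes of RTT_ROSA26 (144 cells) and the macrophages of NTT (308 cells) had the fewest cells. Some single types held fewer, such as Monocyte_1 of RTT_ROSA26 with 54 cells and TAM_H2Ab1 of RTT with 63.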
